A study of Mus musculus with 8 samples.

Results

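The cytosolic ribosomal protein genes encode the proteins of the large and small ribosomal subunits, and every cell transcribes them to make its ribosomes. A set of 46 of them was followed in the H3K27Ac landscape of the neonatal mouse heart, 29 for the large and 17 for the small subunit, spread over 18 chromosomes. Each H3K27Ac peak was given to the gene whose curated RefSeq transcription start lay nearest to the centre of the peak, and 68 of 45980 annotated peaks went to a gene of the set. The rule that gave peaks to genes used gene names and positions alone.

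Chromatin came from the ventricles of mice at postnatal day 7 (P7). The 2 control hearts carried floxed *Arid1a* alleles without Cre (Arid1a f/f), and the 2 *Arid1a cKO* hearts carried the same floxed alleles with the aMHC-Cre transgene, which is active in cardiomyocytes. Ventricles also hold endothelial cells, fibroblasts, mural cells and leukocytes, in which this transgene is not expected to delete *Arid1a*. *Arid1a* encodes a DNA-binding subunit of the SWI/SNF chromatin remodelling complex. Each heart gave a library precipitated with an antibody against H3K27Ac and an input library without antibody, 8 libraries in all. The study asked how loss of *Arid1a* in cardiomyocytes altered H3K27Ac. The deposited table gave each peak's mean normalized read count per group on the log2 scale, and 0 columns of per-sample values. All levels below are therefore the authors' means of 2 hearts, no spread between hearts can be given, no replicate test was made here, and the depth of the libraries is unknown.

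H3K27Ac is an acetyl mark on histone H3 that sits on the nucleosomes beside active promoters and on active enhancers. Ribosomal protein genes are short, lie apart from each other on many chromosomes, and are transcribed at high rates in nearly all cells, which is why several of them serve as reference genes. Their transcripts typically begin with a C followed by a run of pyrimidines, the terminal oligopyrimidine tract, through which mTOR signalling adjusts their translation. Their promoters commonly lack a TATA box and carry sites for broadly expressed factors of the ETS, SP1, YY1 and MYC families.

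The starts of the set are shown first, since the H3K27Ac levels below were measured around them. Windows were read from RefSeq on GRCm38.p6, the assembly that mm10 stands for, and 38 of 46 genes had one. *Rpl3*, *Rpl7*, *Rpl8*, *Rpl30*, *Rpl32*, *Rplp1*, *Rps14* and *Rps20* had no entry. At 8 of the 38 genes (21.1%) the annotated start was a C followed by at least 4 pyrimidines, against 813 of 27025 genes with a window (3.01%) and 0 of 69 mitochondrial ribosomal protein genes. The 8 windows are printed 5′ to 3′ from 10 bases before the start to 20 bases from it, with the tract from the start onward in capitals. The tracts were 6 to 13 bases long.
Rpl14, chr9:120571507-120571536, + strand: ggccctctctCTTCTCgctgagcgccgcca
Rpl15, chr14:18270967-18270996, - strand: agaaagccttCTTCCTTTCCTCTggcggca
Rpl28, chr7:4792955-4792984, + strand: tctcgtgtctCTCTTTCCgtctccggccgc
Rpl35, chr2:39005112-39005141, - strand: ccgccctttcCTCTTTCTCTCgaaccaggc
Rpl38, chr11:114668570-114668599, + strand: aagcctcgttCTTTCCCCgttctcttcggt
Rps18, chr17:33955646-33955675, - strand: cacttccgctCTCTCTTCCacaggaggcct
Rps27, chr3:90213629-90213658, - strand: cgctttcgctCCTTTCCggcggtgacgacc
Rps6, chr4:86857348-86857377, - strand: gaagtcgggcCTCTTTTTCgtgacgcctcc

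An annotated start a few bases away from the tract was not counted. The 8 genes had H3K27Ac differences between −0.27 (*Rpl38*) and 0.07 (*Rpl35*) on the log2 scale.

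In the region from 250 bases before to 50 bases after the start, the ETS letters CCGGAAG were present at 14 of 38 genes (36.8%) and at 9.93% of all 27025 genes. Mitochondrial ribosomal protein genes had them at 37.7%. The GC box GGGCGG was present at 21 genes (55.3%, all genes 38.2%) and the E-box CACGTG, the letters bound by MYC and related factors, at 6 genes (15.8%, all genes 8.09%). The YY1 letters AAGATGGC were found at 3 genes (7.89%, all genes 3.19%) and the NRF1 letters GCGCATGC at 2 genes (5.26%, all genes 3.05%). TATAAA was present at 3 genes (7.89%, all genes 15.7%), and the TEAD letters CATTCC at 5 genes (13.2%, all genes 16.6%). Both strands were searched, and the end of the ETS letters can overlap the start of the YY1 letters. A match is a description of the letters and not a binding site.

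The 120 bases upstream of 4 starts follow, with ETS, GC box and E-box matches in capitals. *Rpl19*, at the first of its annotated starts, is shown for the highest H3K27Ac level per kb, *Rpl38* for the lowest difference between genotypes, *Rps18* as a gene with nearly equal levels, and *Rpl3l*, a paralogue used in striated muscle, as the contrast described further on. The *Rpl19* peak was centred nearest to its second annotated start, whose 120 upstream bases held none of the searched letters. In the *Rpl3l* stretch, too, none of the searched letters was present. The same held for several members, among them *Rpl4*, *Rpl5*, *Rpl6*, *Rplp0*, *Rps3* and *Rps9*, so it does not set *Rpl3l* apart.
Rpl19, chr11:98026590-98026709, + strand: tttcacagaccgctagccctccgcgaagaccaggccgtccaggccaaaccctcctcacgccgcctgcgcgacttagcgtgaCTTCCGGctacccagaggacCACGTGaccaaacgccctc
Rpl38, chr11:114668460-114668579, + strand: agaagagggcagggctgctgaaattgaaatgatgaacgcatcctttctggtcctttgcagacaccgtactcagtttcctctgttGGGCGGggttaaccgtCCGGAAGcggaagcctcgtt
Rps18, chr17:33955666-33955785, - strand: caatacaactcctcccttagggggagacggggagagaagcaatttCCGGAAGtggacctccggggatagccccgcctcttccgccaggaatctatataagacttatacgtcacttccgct
Rpl3l, chr17:24727706-24727825, + strand: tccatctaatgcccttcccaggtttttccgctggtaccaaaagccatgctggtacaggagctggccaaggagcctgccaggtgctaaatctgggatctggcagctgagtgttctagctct

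All 46 starts lay inside an H3K27Ac peak, each in a peak of its own, while 57% of 21000 curated coding genes had a start in a peak. For 40 genes the peak over the start was also nearest to that gene, and these 40 peaks are called start peaks. The other 28 of the 68 peaks covered no start of their gene and belonged to 11 genes. For *Rpl3*, *Rpl13*, *Rpl18*, *Rpl23*, *Rps2* and *Rps25* the peak over the start was nearest to the start of another gene, and they had no peak by the rule of the nearest start. When a promoter was defined by the centre of the peak, as up to 1000 bp before and 100 bp after the start, 10 of the 68 peaks were promoter peaks. These were at *Rpl4*, *Rpl7*, *Rpl19*, *Rpl28*, *Rpl30*, *Rpl35*, *Rpl37*, *Rplp1*, *Rps12* and *Rps16*. Of the 40 start peaks, 30 were centred more than 100 bp downstream and fell out of that window although they covered the start.

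The peaks reached into the genes. The centres of the 40 start peaks lay a median of 295 bp downstream of the start, with a range from −381 bp at *Rpl7* to 1262 bp at *Rpl38*, and 34 were downstream. Over all 12022 start peaks of the table the median was 178 bp, and 73.6% were downstream. The start peaks of the set were about as wide as the others, with a median of 2140 bp against 2207 bp. They covered more of the gene, since the genes are short. The median gene length was 3250 bp against 23330 bp over all start peaks, and the median share of the gene under the peak was 42.8% against 5.93%. The whole of *Rps9* and *Rps27* lay under their peaks (100%), while the peak of *Rpl5* covered 16.1% of the gene.

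**Figure D1:**
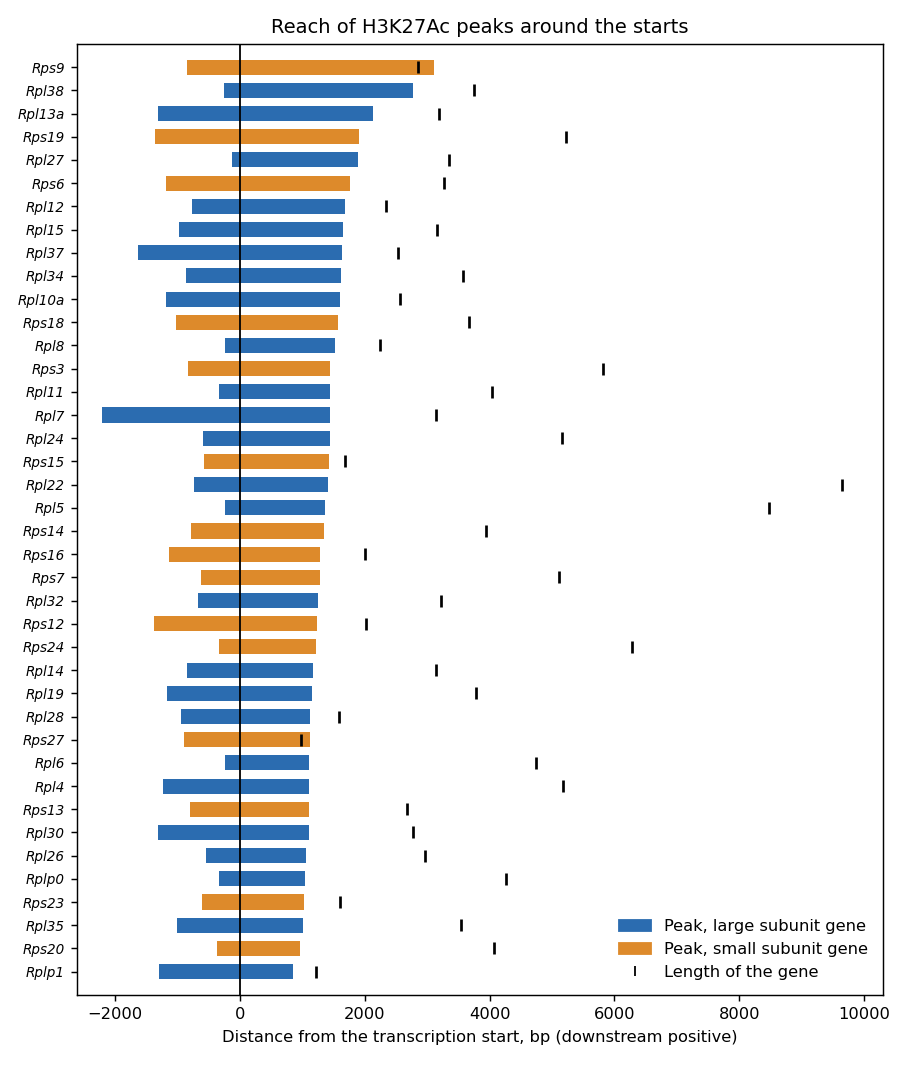
Reach of the 40 start peaks (bars, blue for large and orange for small subunit genes) relative to the transcription start at 0, in bp with downstream positive, and the length of each gene (black ticks). The peaks extended a median of 832 bp upstream and 1356 bp downstream, and the tick lies within the bar at *Rps9* and *Rps27*.

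Some start peaks were shared with a neighbour. Of the 40, 11 also held the start of another gene (all start peaks, 15.9%), among them the snoRNA genes *Snord32a*, *Snord33* and *Snord34* within *Rpl13a*, *Snora7a* at *Rpl32* and *Snord14a* at *Rps13*. Protein-coding neighbours were *Lrsam1* at *Rpl12*, *Zwilch* at *Rpl4*, *Rdh10* at *Rpl7*, *Nkiras1* at *Rpl15*, *Vps52* at *Rps18* and *Rab13* at *Rps27*. H3K27Ac in such a peak cannot be divided between the genes. The median difference was −0.02 in these 11 peaks and 0.00 in the 29 with no other start.

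H3K27Ac over the starts of the set was high. In the control hearts the median start peak held 209 normalized reads, or 97.8 per kb of peak, against 151 reads and 62.3 per kb over all start peaks. In *Arid1a cKO* hearts the set had 212 reads and 95.6 per kb, against 150 reads and 61.8 per kb. In control hearts the median gene of the set stood at percentile 75.1 of all start peaks per kb and at percentile 61.7 by reads per peak. Some related gene lists, given further on, had similar or higher levels. Per kb, 38 of the 40 peaks lay above the median of all start peaks. The exceptions were *Rpl12* and *Rps9*. Large and small subunit genes had median control levels of 92.2 and 104 reads per kb.

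The highest level per kb in control hearts was at *Rpl19*, a large subunit gene on chromosome 11 whose peak spanned chr11:98025753-98028083 on mm10. It had 249 reads per kb in control and 220 in *Arid1a cKO* hearts (580 and 512 reads per peak). *Rps14*, a small subunit gene known for its loss in the 5q deletion syndrome, followed with 191 and 186 reads per kb (chr18:60773813-60775947). *Rpl7* had 173 and 165 reads per kb (chr1:16102992-16106637), in the peak that also holds the start of *Rdh10*. *Rps23*, whose product lies at the decoding centre, had 163 and 146 (chr13:90922511-90924158). *Rpl32* had 139 and 151 (chr6:115807485-115809411). *Rps18* had 136 and 135 (chr17:33954094-33956692). Of these 6 genes, *Rpl32* alone had the higher mean in *Arid1a cKO* hearts. At the other end, *Rps9*, an early-binding protein of the small subunit, had 50.7 and 60.7 reads per kb over its wide peak (chr7:3703191-3707152), and *Rpl12* of the ribosomal stalk base had 61.5 and 62.4 (chr2:32960942-32963398).

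**Figure D2:**
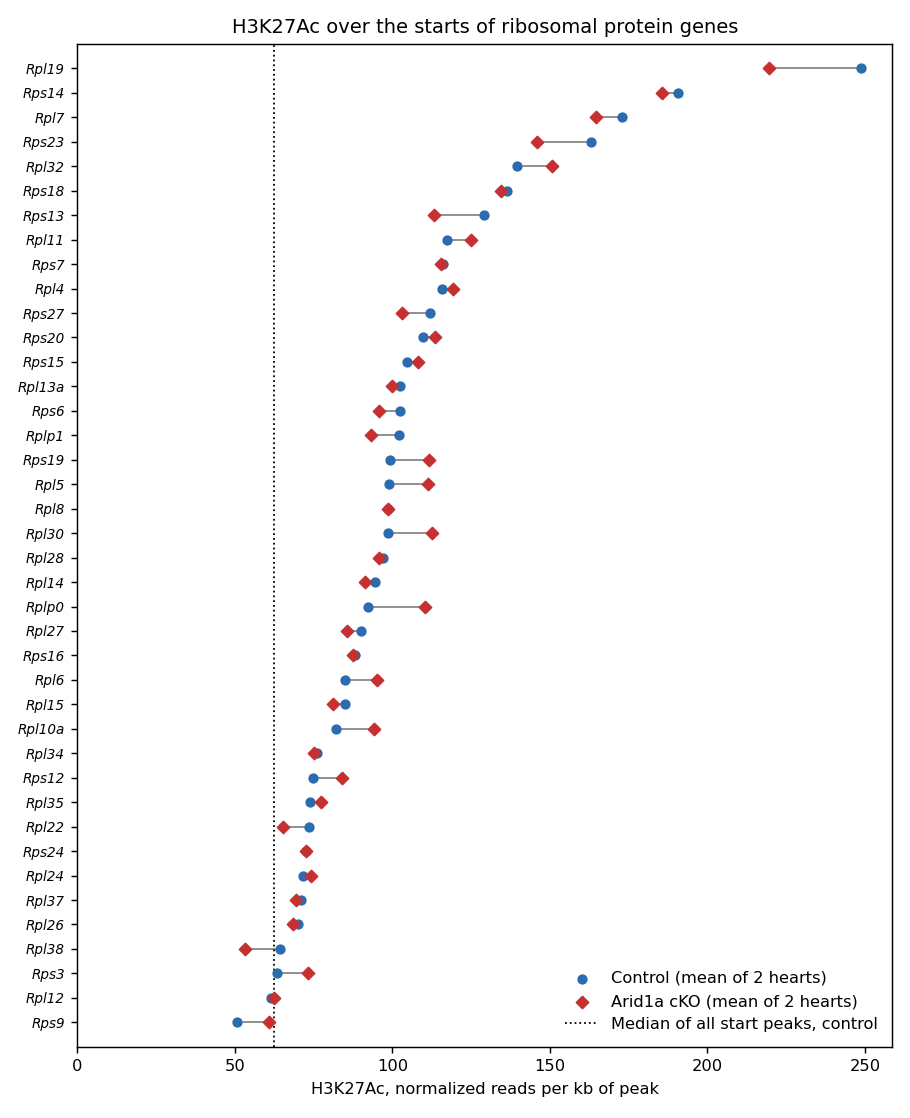
H3K27Ac level of the 40 start peaks in normalized reads per kb of peak, as the authors' means of 2 hearts, in control (blue circles) and *Arid1a cKO* (red diamonds), joined by a line for each gene. In control, levels ran from 50.7 at *Rps9* to 249 at *Rpl19*, and 38 of 40 lay right of the dotted line at 62.3, the median of all start peaks.

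The genotypes had nearly the same H3K27Ac over the starts of the set. The difference, *Arid1a cKO* minus control on the log2 scale, had a median of −0.010 over the 40 start peaks (middle 50 percent of peaks, −0.07 to 0.10), with 21 peaks below 0, 17 above and 2 at 0. The lowest was −0.27 and the highest 0.26, which are 0.829 and 1.20 times the control level. No start peak of the set (0 of 40) differed by 0.5 or more in size, whereas 11.5% of all 12022 start peaks did, 5.37% toward lower and 6.18% toward higher levels in *Arid1a cKO* hearts. The SD over peaks was 0.130 in the set and 0.414 over all start peaks, whose median was 0.010. In the set, 37 of 40 peaks (92.5%) were within 0.25, against 67.7% of all start peaks. Several related gene lists, given further on, had shares as high. The summed reads of the set in *Arid1a cKO* hearts were 0.999 times those in control hearts, against 0.964 for all start peaks and 0.943 for all peaks. These spreads are between genes and not between hearts, and no test of the set against other genes was made. The comparisons with all start peaks were not matched for level. The set had no peak among the start peaks with the least H3K27Ac, where differences varied most. Peaks of like level are given below.

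The 10 peaks centred in the promoter window had a median difference of −0.015 and a range from −0.18 at *Rpl19* to 0.19 at *Rpl30*. None (0 of 10) was past 0.5 in size, against 11.2% of all 4549 peaks centred in a promoter window. Among only 10 peaks, a count of 0 is near that share. The comparison was also not matched for level. The median control level of the 10 peaks was 226 reads per peak, or 97.8 per kb, against 124 and 59 over all such promoter peaks. The large and small subunit genes did not stand apart, with medians of −0.020 over 25 and −0.010 over 15 start peaks.

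Large differences were most common among start peaks with little H3K27Ac, so the set was also read against peaks of like level. With all start peaks ranked by concentration into 4 equal groups, the set had 0, 7, 27 and 6 peaks from the lowest to the highest group. The share of all start peaks past 0.5 in size was 28.3%, 8.09%, 4.67% and 5.04% in the same order. In the same order, the share of all start peaks within 0.25 was 43.4%, 66.8%, 80.3% and 80.5%. Their SD was 0.640, 0.351, 0.272 and 0.246. The set had 85.7%, 92.6% and 100% within 0.25 in the groups with 7, 27 and 6 of its peaks. Its SD there was 0.137, 0.133 and 0.113. Its summed reads there were 917, 5705 and 2651 in control and 946, 5751 and 2568 in *Arid1a cKO* hearts. For all start peaks the sums were 316879, 665799 and 2061957 in control and 320747, 654612 and 1950745 in *Arid1a cKO* hearts. Within the set, Spearman's rho of control level and difference was −0.33 over 40 peaks, and it was −0.30 over all start peaks. The control mean enters both quantities, so the points share its error.

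**Figure D3:**
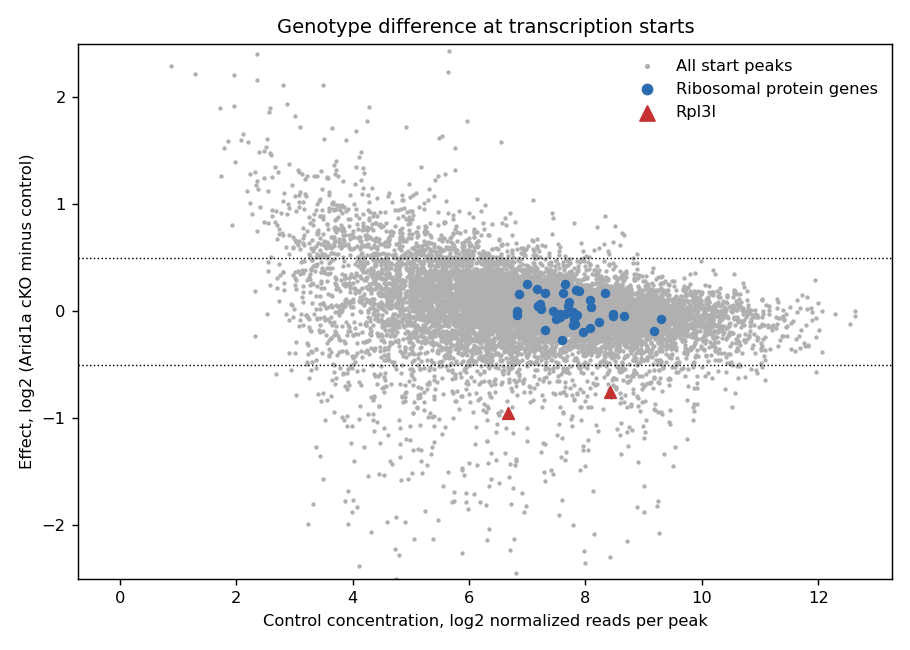
Difference between genotypes (log2, *Arid1a cKO* minus control) against the control concentration (log2 normalized reads per peak) for all 12022 start peaks (grey), the 40 of the set (blue) and the 2 of *Rpl3l* (red triangles). Dotted lines mark 0.5 in each direction, 39 peaks lie outside the plotted range of 2.5, and the set lies between −0.27 and 0.26.

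The members with the lowest differences belonged to both subunits. *Rpl38*, which has been linked to the translation of Hox transcripts in the embryo, had 194 normalized reads in control and 161 in *Arid1a cKO* hearts (−0.27). *Rps13* of the small subunit had 247 and 217 (−0.19), and *Rpl19* had 580 and 512 (−0.18). *Rpl22*, an RNA-binding large subunit protein that cells can lose without losing translation, had 158 and 140 (−0.17). *Rps23* had 269 and 241 (−0.16). In each of these 5 the *Arid1a cKO* mean was the lower, by less than the 0.5 limit, and whether the hearts of the groups overlapped cannot be read from means.

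The highest differences were at *Rplp0* and *Rps9*. *Rplp0*, the base of the acidic stalk that recruits translation factors and a common reference gene in qPCR, had 127 reads in control and 152 in *Arid1a cKO* hearts (0.26). *Rps9* had 201 and 241 (0.26). *Rps3*, which lines the mRNA entry channel, had 144 and 167 (0.21), *Rpl10a* of the L1 stalk 229 and 263 (0.20), and *Rpl30* 237 and 271 (0.19). The genes of the stalk lay on either side of 0. *Rplp1*, whose product binds to that of *Rplp0* in the stalk, had 220 and 201 reads (−0.13), and *Rpl12*, at the base of the stalk, had 151 and 153 (0.02).

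Further members are given here for what their products are known to do. *Rpl5* and *Rpl11*, whose products join the 5S RNA and bind MDM2 when ribosome assembly fails, had 159 and 179 reads (0.17) and 209 and 223 reads (0.09). *Rps19*, the gene most often mutated in Diamond-Blackfan anaemia, had 324 and 365 (0.17). *Rps24* and *Rps7*, mutated in the same disease, had 113 and 113 (0.00) and 221 and 220 (−0.01). *Rps6*, the substrate of S6 kinase downstream of mTOR, had 302 and 282 (−0.10). *Rpl13a*, a translational repressor when released from the ribosome and a frequent reference gene, had 355 and 345 (−0.04). *Rpl8* and *Rpl4*, which border the peptidyl transferase centre and the exit tunnel, had 174 and 174 (0.00) and 272 and 280 (0.04).

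The 6 genes with no nearest peak had levels of the same order in the peaks over their starts. *Rpl3*, near the peptidyl transferase centre, had 241 and 208 normalized reads (−0.21) in a peak centred nearest to *Snord43*, a snoRNA gene. *Rpl13* had 252 and 220 (−0.20) in a peak nearest to *Snord68*. *Rpl23* had 313 and 290 (−0.11) in a peak nearest to *Snora21*. *Rps2*, the small subunit gene next to *Rpl3l*, had 211 and 226 (0.10) in a peak nearest to *Snora64*. *Rpl18* had 434 and 422 (−0.04) in a peak nearest to *Sphk2*, and *Rps25* had 249 and 242 (−0.04) in a peak nearest to *Trappc4*. With these added, the median over all 46 genes was −0.02, 26 were below 0, and 0 of 46 were past 0.5 in size.

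Related gene lists had similarly small differences over their starts. The other 28 cytosolic ribosomal protein genes with a start peak had a median of −0.005, from −0.32 at *Rps15a* (146 and 117 reads) to 0.20 at *Rpl23a*, *Rpl36a* and *Rpsa*. Mitochondrial ribosomal protein genes, which build the separate ribosome of mitochondria, had a median of 0.025 over 58 peaks, from −0.32 at *Mrps25* to 0.42 at *Mrpl15* (82.7 and 111 reads). For 20 translation factors the median was −0.025, from −0.19 at *Eef1a2*, the elongation factor form of muscle and neurons, to 0.47 at *Eif3h* (94.4 and 131 reads). Ribosome biogenesis genes had a median of −0.010 over 20 peaks, from −0.43 at *Tcof1* (49.2 and 36.5 reads), which acts in rRNA transcription, to 0.33 at *Nhp2*, a protein of H/ACA particles. Proteasome genes had −0.050 over 28 peaks, from −0.40 at *Psma5* to 0.21 at *Psmb7*. Genes used as references in expression assays had −0.070 over 13 peaks, with the highest, 0.19, at *Pgk1*, a glycolytic enzyme. In none of these 6 lists was a start peak past 0.5 in size. In the order given, their median control levels were 95.9, 75, 110, 64.8, 78.8 and 107 reads per kb. Their shares within 0.25 were 96.4%, 86.2%, 95%, 75%, 96.4% and 92.3%. The SDs over peaks were 0.143, 0.166, 0.146, 0.199, 0.148 and 0.146. Neither the high level nor the narrow spread was therefore particular to the set.

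**Figure D4:**
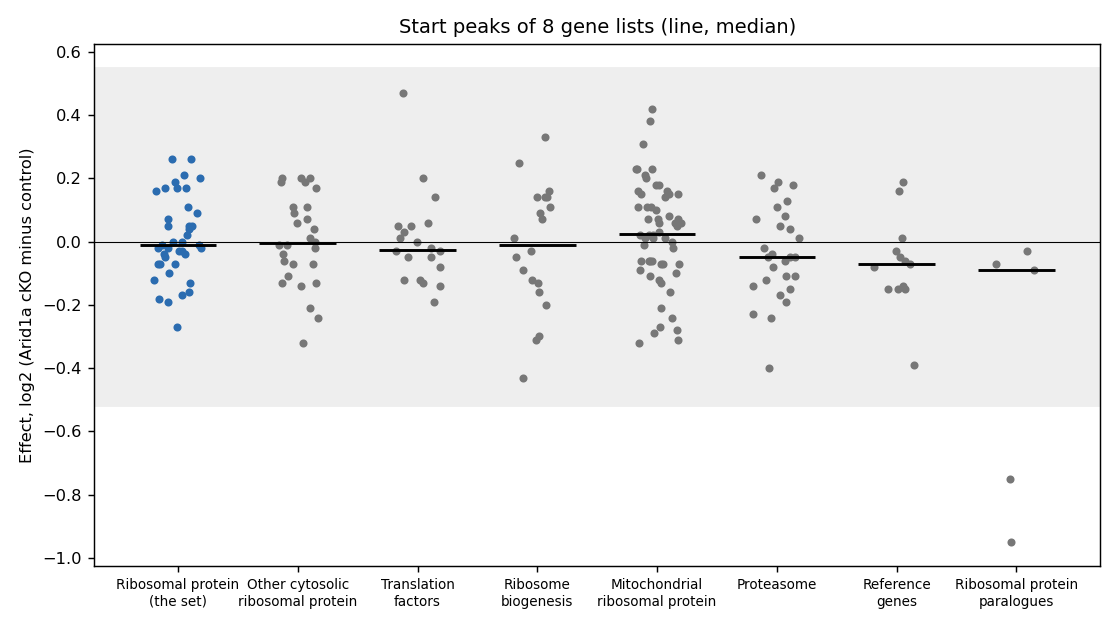
Difference between genotypes (log2, *Arid1a cKO* minus control) of the start peaks of 8 gene lists, a point for each peak and a line at the median. The grey band holds the middle of all start peaks from the 5 to the 95 percent point (−0.52 to 0.55), and only the 2 peaks of *Rpl3l*, at −0.95 and −0.75, lie below it.

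Close relatives of ribosomal protein genes that are not general components were measured in the same table. *Rpl3l* replaces *Rpl3* in the ribosomes of heart and skeletal muscle. Its 2 peaks each covered a start, 1 at chr17:24727205-24730384 with 102 reads in control and 52.7 in *Arid1a cKO* hearts (−0.95), and 1 at chr17:24730906-24734253 with 345 and 205 (−0.75). *Rpl3l* was thus the only gene of these lists with a start peak past 0.5, while *Rpl3* itself had −0.21. The gene begins 5898 bp after the end of *Rps2*, whose start had 0.10. *Rpl22l1*, which can take the place of *Rpl22*, had 120 and 115 reads (−0.07), beside −0.17 for *Rpl22*. *Rps27l* had −0.09 and *Rpl7l1* −0.03, and the starts of *Rpl39l* and *Rpl10l*, known from testis, lay in no peak.

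The ventricles were taken whole, so markers of their cell types were read from the same table. The starts of 8 of 8 cardiomyocyte markers lay in a peak, with differences of −0.43 to 0.13 and summed reads of 17327 in control and 15877 in *Arid1a cKO* hearts. For 6 of 6 endothelial markers the sums were 4354 and 4559. For 6 of 6 fibroblast markers the differences were 0.17 to 0.71 and the sums 1565 and 2201. For 4 of 5 mural markers, all but *Myh11*, the differences were −0.02 to 1.09 and the sums 1400 and 1815. *Acta2* (322 and 596 reads, 0.89) and *Tagln* (1.09) were higher, while *Rgs5* (−0.02) and *Pdgfrb* (0.19) had smaller differences. The paper proposes *Acta2* as a possible direct YAP/TEAD target in *Arid1a cKO* hearts, and a mural cell origin of its reads was not tested. Of 5 leukocyte markers *C1qa* alone had a start in a peak (29.9 and 33.6 reads), and *Alb*, *Krt5*, *Neurod1* and *Olig2*, which mark other organs, had 0 of 4. The part of these levels in the differences at ribosomal protein genes was not tested. Fewer cells of a type and less of the mark per cell cannot be told apart.

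Away from the starts, the peaks nearest to the set were lower and more variable. The 28 peaks over no start lay a median of 36.3 kb from it, from 5.16 to 303 kb, and 0 were centred inside the gene itself. Their median level was 38.7 normalized reads in control and 24.7 in *Arid1a cKO* hearts, with a median difference of −0.160. Over all 33958 peaks over no start, the medians were 30.9 and 28.4 reads and a difference of 0.020. Of the 28 peaks, 10 were nearest to *Rps24* and 4 to *Rplp1*, so 2 neighbourhoods weigh heavily in these medians. At least 0.5 lower in *Arid1a cKO* hearts were 9 of 28 and at least 0.5 higher were 3 of 28, against 24.6% and 18.4% of all 33958 peaks over no start (43% in either direction). The combined 12 of 28 is near that background. All 58 peaks centred outside the promoter window had a median of −0.025, with the same 9 and 3 past the limit, against 21.2% and 16.2% of all 41431 such peaks (37.4% in either direction). Nearest does not mean acting on the gene, and several of these peaks lay inside other genes.

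Between genes there were 20 of the 28 peaks, nearest to 6 genes, with 8 at least 0.5 lower and 0 at least 0.5 higher. Over all 13812 peaks over no start that were centred between genes, the shares were 20.4% and 20.9%. Of the 8 lower peaks, 7 were nearest to *Rps24* or *Rplp1*, so they come from 2 neighbourhoods and not from separate genes. *Rps24*, on chromosome 14, was nearest to 10 of them, all downstream of the gene. The peak at chr14:24574470-24576228, 84.6 kb from the start, had 81.0 reads in control and 28.4 in *Arid1a cKO* hearts (−1.51). Its neighbour at chr14:24578195-24580220 had 59.3 and 22.8 (−1.38). At chr14:24634399-24635164, 144 kb away, the means were 10.3 and 3.78 (−1.44). At chr14:24544755-24545409, 54.3 kb away, the control mean was 11.6 reads and the *Arid1a cKO* mean was under the floor of 3 reads, so the level was at least 3.85-fold lower. The other 6 ran from −0.43 to 0.25, and the largest, at chr14:24745778-24750087, had 198 and 236 reads (0.25). So the region held 4 peaks with much lower means and 6 without, and the start of *Rps24* had 113 reads in each group.

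*Rplp1* on chromosome 9 had 4 such peaks. At chr9:61889225-61890942, 24.4 kb from the start, the means were 42.5 and 13.3 reads (−1.68). At chr9:61645188-61646560, 269 kb away, they were 38.6 and 9 (−2.10), and at chr9:61654819-61656295 they were 39.7 and 16.1 (−1.30). The fourth, at chr9:61722403-61724093, had 51.3 and 57.7 (0.17), so the lower means were not shared by the whole stretch. The remaining lower peak between genes lay 7.66 kb from the start of *Rps14*, at chr18:60766534-60767339, with 15.2 and 9 reads (−0.76).

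The 8 peaks inside other genes had a median difference of 0.235, with 1 at least 0.5 lower and 3 at least 0.5 higher. The shares were 27.4% and 16.7% over all 20146 peaks over no start that were centred inside a gene. The lower one lay 5.75 kb from the start of *Rpl32* in an intron of *Efcab12*, at chr6:115813672-115815310, with 52.0 and 21.4 reads (−1.28). The highest difference was 33.3 kb from *Rpl30* in an intron of *Matn2*, which encodes an extracellular matrix protein, at chr15:34406487-34413328, with 48.5 and 124 reads (1.36). A second *Matn2* peak had 32.7 and 42.8 reads (0.39). In an intron of *Pxn*, the gene of the focal adhesion protein paxillin, a peak 12.1 kb from *Rplp0* at chr5:115546810-115547854 had 12.1 and 19.4 reads (0.68). In an intron of *Lyn*, a kinase gene of blood cells, a peak 60.2 kb from *Rps20* at chr4:3774266-3776634 had 38.9 and 54.9 (0.50).

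Distance from the start did not order the lower peaks. Under 10 kb, 2 of 5 peaks were at least 0.5 lower, from 10 to 50 kb 1 of 10, and beyond 50 kb 6 of 13, against 24%, 24.5% and 25.1% of all peaks over no start. The 6 beyond 50 kb belonged to *Rps24* and *Rplp1*, so they share 2 neighbourhoods and are not independent. The other peaks, at *Rpl11*, *Rpl19*, *Rpl26*, *Rplp0* and *Rps13*, had differences between −0.48 and 0.16.

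**Figure D5:**
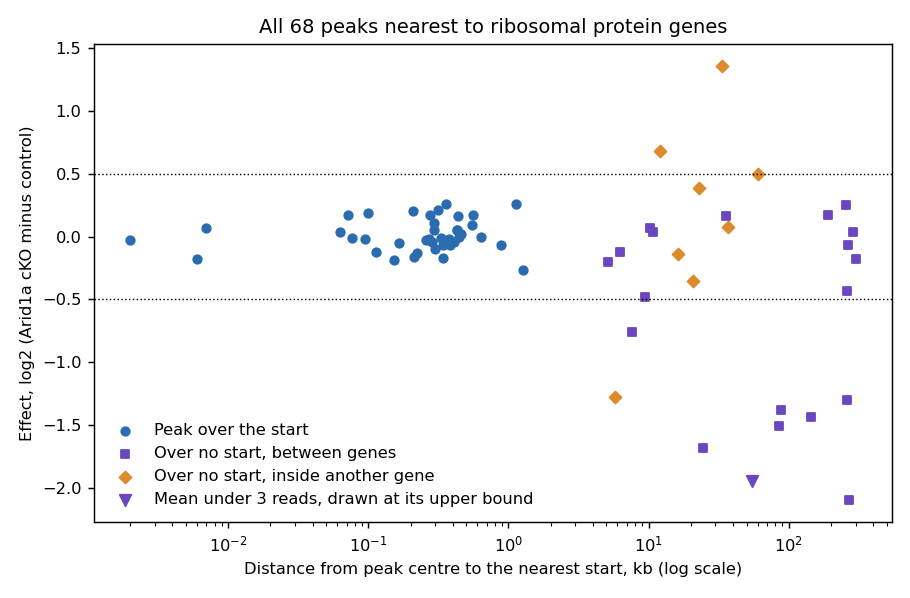
Difference between genotypes (log2, *Arid1a cKO* minus control) of the 68 peaks nearest to the set against the distance of the peak centre from the start in kb (log scale). Peaks over the start (blue circles) lie between −0.27 and 0.26, while peaks between genes (purple squares) and inside other genes (orange diamonds) run from −2.10 to 1.36. The *Rps24* peak with a mean under 3 reads is drawn at its upper bound of −1.94 (purple triangle).

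Since the set is used as a housekeeping reference, all differences were also read relative to it. Subtracting the median of its start peaks moved the number of annotated peaks at −1 or lower from 4878 to 4816 and the number at 1 or higher from 2103 to 2154. Subtracting the median of all start peaks gave 4927 and 2048. The starts of ribosomal protein genes and those of all genes thus placed 0 within 0.02 of each other. The read counts were already normalized between groups by a scaling that is not known here. The closeness therefore cannot show that absolute levels were unchanged.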

How the data were processed

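H3K27Ac ChIP-Seq covered the P7 ventricles of 2 controls and 2 mutants, each with its input library. Samples were grouped by the genotype and antibody in the labels. Tools in the submitters' processing notes were BWA 0.7.17-r1188, HOMER 4.11, DiffBind 2.12.0 and DESeq2 1.24.0. Peaks were called against merged inputs and kept if found in more than a single sample. The authors' deposited table gives each peak's concentration, the mean normalized read count on the log2 scale, for the 2 groups and for all samples together. It has 0 columns of per-sample values, so no replicate test or depth could be computed. Its columns of the authors' own comparison (fold change, p-value, FDR) were not used. Library scaling, the treatment of input, and the handling of reads shared with near-identical processed pseudogenes are not given in the sources used here, so exon-covering levels are uncertain.

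Peaks were joined to GRCm38.p6 and 45756 curated RefSeq transcripts. All peaks on 21 chromosomes fitted within the reference lengths, and of 45987 peaks the 7 on unplaced scaffolds were dropped. The effect is the difference of the log2 group means, with a limit of 0.5 in size as the call. For single peaks, group means under 3 reads were set to that floor, while medians used the deposited values. Reads per kb are 2 to the power of the log2 mean, divided by peak width.

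Genes with full values were the 6 highest in level per kb, the 5 lowest and 5 highest in effect, those with no nearest peak, peaks over no start past 0.5, *Rpl3l*, *Rpl22l1* and the extremes of each comparison list, of which 1 is not reported here. Since 10 peaks were centred in the promoter window, the rule was applied to start peaks. Genes named for their role were chosen after their values were seen. The members and lists were chosen with earlier results of these data known. Alternatives covered promoter class, window, transcripts, peaks per gene, low peaks, centring, scale, gene list and limit. The assignment of peaks to starts, the promoter and start classes, and the interval of a median were tested on simulated data with evenly spaced starts. The other steps were not tested in this way. Python 3.11.15, numpy 2.4.6, scipy 1.17.1, pandas 2.3.3 and matplotlib 3.10.9 were used.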

Additional observations from a re-analysis of the deposited data

How the results depend on the processing

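Of 38 alternatives computed for the promoter effect, the effect of other peaks, the count past 0.5 and the promoter level, 37 kept the main value: the count stayed at 0, and the other values stayed within the interval of the main value over peaks. The exception was the median of other peaks, −0.025 over 58 peaks, which was −0.160 over the 28 that covered no start. The 30 start peaks centred outside the promoter window leave the set under that alternative. The median promoter effect ran from −0.025 to −0.010. Its main interval, from 10 peaks, was −0.13 to 0.17. For the promoter results, coding transcripts, 1 peak per gene and dropping low peaks again gave 10 peaks with the same values. Centring subtracted 0.010 from every effect, which could not take a median out of its main interval. A limit of 1 could not call more peaks than the limit of 0.5. Such alternatives had little room to move and add little to the count of 37. Counting each peak over a member's start whichever gene was nearest was added after seeing the data, and gave −0.020 over 46 peaks. No promoter or start peak was past 0.5 under the definitions tried (0 of 10, 34, 40 or 46), or, with a limit of 0.25 or 1, among the 10. No paired analysis was possible because the deposited table holds group means and no column for a replicate. For the same reason no heart could be left out, and a difference of this size may lie within the spread between hearts. Of the 68 peaks, 1 had a group mean under the floor of 3 reads.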
